A study of Mus musculus with 10 samples.

Results

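Genes of white and brown fat were followed through libraries of mouse heart and skeletal muscle. The 9 genes, Adipoq, Lep, Retn, Cfd, Plin1, Plin4, Cidec, Ucp1 and Cidea, were taken by symbol from the 23337 genes counted in each library, and all 9 were found; 7 belong to white fat and 2 to brown fat. The libraries came from a study of E0, a conserved stretch in the first intron of the titin gene Ttn that was removed from 1 allele by CRISPR/Cas9 (E0del/+). The left ventricle (LV) and skeletal muscle (SkM) of 2 WT and 3 E0del/+ mice were sequenced, 10 libraries in all, each of 1 tissue of 1 mouse. All 5 mice were 17 weeks old hybrids from a cross of the C57BL/6 strain, which carried the deletion, with 129SvEv, and no agent was given to any of them. The muscle sampled as SkM, how closely fat was trimmed from each sample and the sex of each mouse are not in the labels. The batch labels follow the replicates, so that batches 1 and 2 hold a WT and an E0del/+ mouse and batch 3 a single E0del/+ mouse. Total counts lay between 11010021 and 17484873 per library, so that 1 count was worth 0.0572 to 0.0908 CPM, a gene's counts scaled by the total of its library.

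Fat cells sit between the fibres and along the fascia and vessels of skeletal muscle, and beneath the outer surface of the heart. In limb muscle they arise from fibro-adipogenic progenitors, stromal cells that lie between the fibres. White adipocytes store triglyceride in a single large droplet and secrete hormones, whereas brown adipocytes burn fat for heat with the mitochondrial uncoupling protein encoded by Ucp1. In bulk tissue, fewer cells of a type and less RNA per cell cannot be told apart.

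The promoters of Adipoq, Lep and Cidec, which moved together among the SkM libraries, and of Ucp1, which departed from them, are given as the 250 bases upstream of the RefSeq start (GRCm38.p6), 5′ to 3′ on the gene's strand. They lie at chr16:23146286-23146535 and chr6:29059971-29060220 on the plus strand, at chr6:113435761-113436010 on the minus strand for the first of 2 Cidec starts, and at chr8:83290098-83290347 on the plus strand. Capitals mark matches to 6 motifs sought on both strands.
Adipoq: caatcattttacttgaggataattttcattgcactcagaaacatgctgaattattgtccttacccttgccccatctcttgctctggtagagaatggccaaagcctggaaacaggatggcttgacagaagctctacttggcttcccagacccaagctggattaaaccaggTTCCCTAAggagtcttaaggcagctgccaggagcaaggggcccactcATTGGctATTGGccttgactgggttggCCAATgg
Lep: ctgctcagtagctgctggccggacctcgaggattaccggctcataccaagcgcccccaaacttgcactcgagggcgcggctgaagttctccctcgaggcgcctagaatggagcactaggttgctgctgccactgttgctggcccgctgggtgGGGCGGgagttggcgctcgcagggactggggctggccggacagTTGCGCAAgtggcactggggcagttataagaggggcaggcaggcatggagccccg
Cidec: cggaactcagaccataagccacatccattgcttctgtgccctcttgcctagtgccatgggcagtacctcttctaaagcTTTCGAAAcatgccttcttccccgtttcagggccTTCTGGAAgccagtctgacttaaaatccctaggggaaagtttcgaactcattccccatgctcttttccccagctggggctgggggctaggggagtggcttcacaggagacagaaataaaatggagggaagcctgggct
Ucp1: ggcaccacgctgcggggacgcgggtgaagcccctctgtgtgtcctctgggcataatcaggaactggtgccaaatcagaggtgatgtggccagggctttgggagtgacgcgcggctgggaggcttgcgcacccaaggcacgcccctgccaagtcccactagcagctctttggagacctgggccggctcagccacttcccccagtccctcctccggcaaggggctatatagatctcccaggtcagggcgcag
The capitals in Cidec and the first run in Adipoq match TTNNGNAA, a loose form of the site bound by C/EBP factors, which was present in 36.8% of the 32851 promoters in the reference table. Lep held this match from position -55 to -48 and a GC box, GGGCGG, from -98 to -93; the GC box was in 32.7% of promoters. The remaining capitals in Adipoq are CCAAT, found in 33.9% of promoters. The Ucp1 window held no match, as did those of Retn and Cfd, which moved with Adipoq, and neither the TATA box TATAAA (12.4% of promoters), the E-box CACGTG (6.02%) nor a direct repeat of the kind bound by PPAR factors (0.338%) occurred in the windows shown. A match describes letters only.

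The labelled tissues were first checked by their defining genes. The 7 fast fibre genes, led by the myosin heavy chain Myh4, summed to between 154214 and 162636 CPM in the 5 SkM libraries and to between 151 and 173 CPM in 4 LV libraries. The 6 ventricular genes, led by Myh6, summed to between 75471 and 88561 CPM in these 4 LV libraries and to between 154 and 2149 CPM in SkM. WT LV replicate 2 stood apart with 38141 CPM of fast fibre genes beside 60765 CPM of ventricular genes, and its values are therefore given separately throughout. In WT SkM replicate 1, the Y-linked gene Ddx3y was counted at 12.5 CPM beside 397 CPM of Xist, the RNA of the inactive X chromosome. The other libraries had Ddx3y between 94.1 and 114 CPM with Xist under 5 CPM (both libraries of WT replicate 2 and of E0del/+ replicate 3) or Ddx3y under 1.3 CPM with Xist above 278 CPM. What these transcripts contribute to the fat genes of WT SkM replicate 1 was not tested.

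The targeted gene, Ttn, was counted at 24205 and 15856 CPM in WT SkM and at 20092, 18854 and 13585 CPM in E0del/+ SkM, replicates in order. In LV the values were 7959 and 9344 CPM in WT and 7737, 5560 and 6597 CPM in E0del/+. The log2 fold change was -0.17 in SkM (SE 0.24, adjusted p = 0.9998) and -0.45 in LV (SE 0.27, adjusted p = 0.9974, both by edgeR's quasi-likelihood test). Counts over exons do not read the deleted intronic stretch and so do not check the genotype labels.

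The secreted proteins of white fat set the pattern. Adipoq encodes adiponectin, a hormone made almost solely by adipocytes, on chromosome 16 from 23146536 to 23157968 of mm10 (3 exons). It stood at 66.7 and 0.686 CPM in WT SkM and at 17.4, 14.9 and 115 CPM in E0del/+ SkM. E0del/+ replicate 3 was thus highest and WT replicate 2 lowest, the remaining E0del/+ libraries lay between the WT libraries, and the genotypes overlapped. In LV, Adipoq was at 0.230 CPM in WT replicate 1 and at 1.89, 1.54 and 0 CPM in E0del/+, against 23.8 CPM in WT replicate 2. The 0 is a count of 0, which allows up to 0.262 CPM (3 counts, counting error only). Adipoq in every LV library but WT LV replicate 2 was under 2 CPM, and only WT SkM replicate 2 among the SkM libraries was that low.

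Lep encodes leptin, the hormone that reports fat stores to the brain. It was counted at 12.02 and 0.114 CPM in WT SkM and at 1.97, 2.80 and 43.1 CPM in E0del/+ SkM. The same libraries were highest and lowest, with E0del/+ replicate 3 at 3.58 times the level of WT replicate 1 (95% exact interval 3.01 to 4.28, counting error only), a wider gap than for Adipoq (1.72 times, 1.58 to 1.86). In LV, Lep was at 0.154 CPM in WT replicate 1 and at 0.130, 0 and 0 CPM in E0del/+. WT LV replicate 2, at 12.3 CPM, matched WT SkM replicate 1 within counting error.

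Retn, the gene of the adipocyte hormone resistin in mice, was at 16.3 and 0.286 CPM in WT SkM and at 3.94, 2.20 and 15.3 CPM in E0del/+ SkM. Here WT replicate 1 and E0del/+ replicate 3 shared the top within counting error (ratio 0.935, 0.772 to 1.13). Cfd encodes adipsin, the serine protease that starts the alternative complement pathway. Per length it was the most abundant of the 9 genes in every SkM library but WT replicate 2, where Plin4 led. The values of Cfd were 811 and 5.89 CPM in WT SkM and 209, 105 and 675 CPM in E0del/+ SkM. WT replicate 1 was highest for Cfd, with E0del/+ replicate 3 at 0.833 times that level (0.810 to 0.856), and WT replicate 2 was again lowest. In LV, Retn was between 0.0768 and 0.456 CPM and Cfd between 0.9596 and 15.3 CPM in 4 libraries, and WT LV replicate 2 held 4.68 and 159 CPM.

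The proteins that coat the lipid droplet divided. Plin1, the perilipin that controls fat breakdown on the adipocyte droplet, was at 119 and 0.858 CPM in WT SkM and at 21.2, 11.1 and 189 CPM in E0del/+ SkM. Cidec, whose protein fuses small droplets into a large one, was at 114 and 1.14 CPM in WT SkM and at 31.5, 13.9 and 162 CPM in E0del/+ SkM. Both followed Adipoq in the order of all 5 libraries. Plin4, a perilipin found in adipocytes and also in striated muscle, was at 666 and 350 CPM in WT SkM and at 513, 489 and 898 CPM in E0del/+ SkM. The order was that of Adipoq, but the highest Plin4 value was 2.57 times the lowest, where the ratio was 167 for Adipoq, 141 for Cidec and 220 for Plin1. In the 4 LV libraries Plin4 lay between 452 and 731 CPM, within the range of SkM, while Plin1 (0.436 to 3.19 CPM) and Cidec (0.436 to 3.19 CPM) were near the level of the lowest SkM library.

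The brown fat genes took a different course. Ucp1 was at 6.77 and 0.286 CPM in WT SkM and at 1.66, 0.133 and 1.20 CPM in E0del/+ SkM, which are 94, 5, 27, 2 and 17 counts. WT replicate 1 was highest by a wide margin, and E0del/+ replicate 3, at the top for Adipoq, had 0.177 times its level. Ucp1 had 0 counts in each of the 4 LV libraries and 6 counts in WT LV replicate 2 (0.540 CPM). Against the floor of 3 counts over these 4 libraries together, the SkM mean of 2.01 CPM was at least 34.0-fold higher, and without WT SkM replicate 1 the mean of 0.819 CPM was at least 13.9-fold higher. Cidea, a droplet protein of brown fat related to Cidec, was at 9.36 and 0.515 CPM in WT SkM and at 2.52, 0.267 and 6.12 CPM in E0del/+ SkM. In LV it was higher than in any SkM library, at 17.3 CPM in WT replicate 1, 14.97, 20.7 and 17.4 CPM in E0del/+ and 13.9 CPM in WT replicate 2. Over the 4 LV libraries without WT replicate 2, the mean of Cidea was 17.6 ± 2.36 CPM (SD, n = 4).

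**Figure D1:**
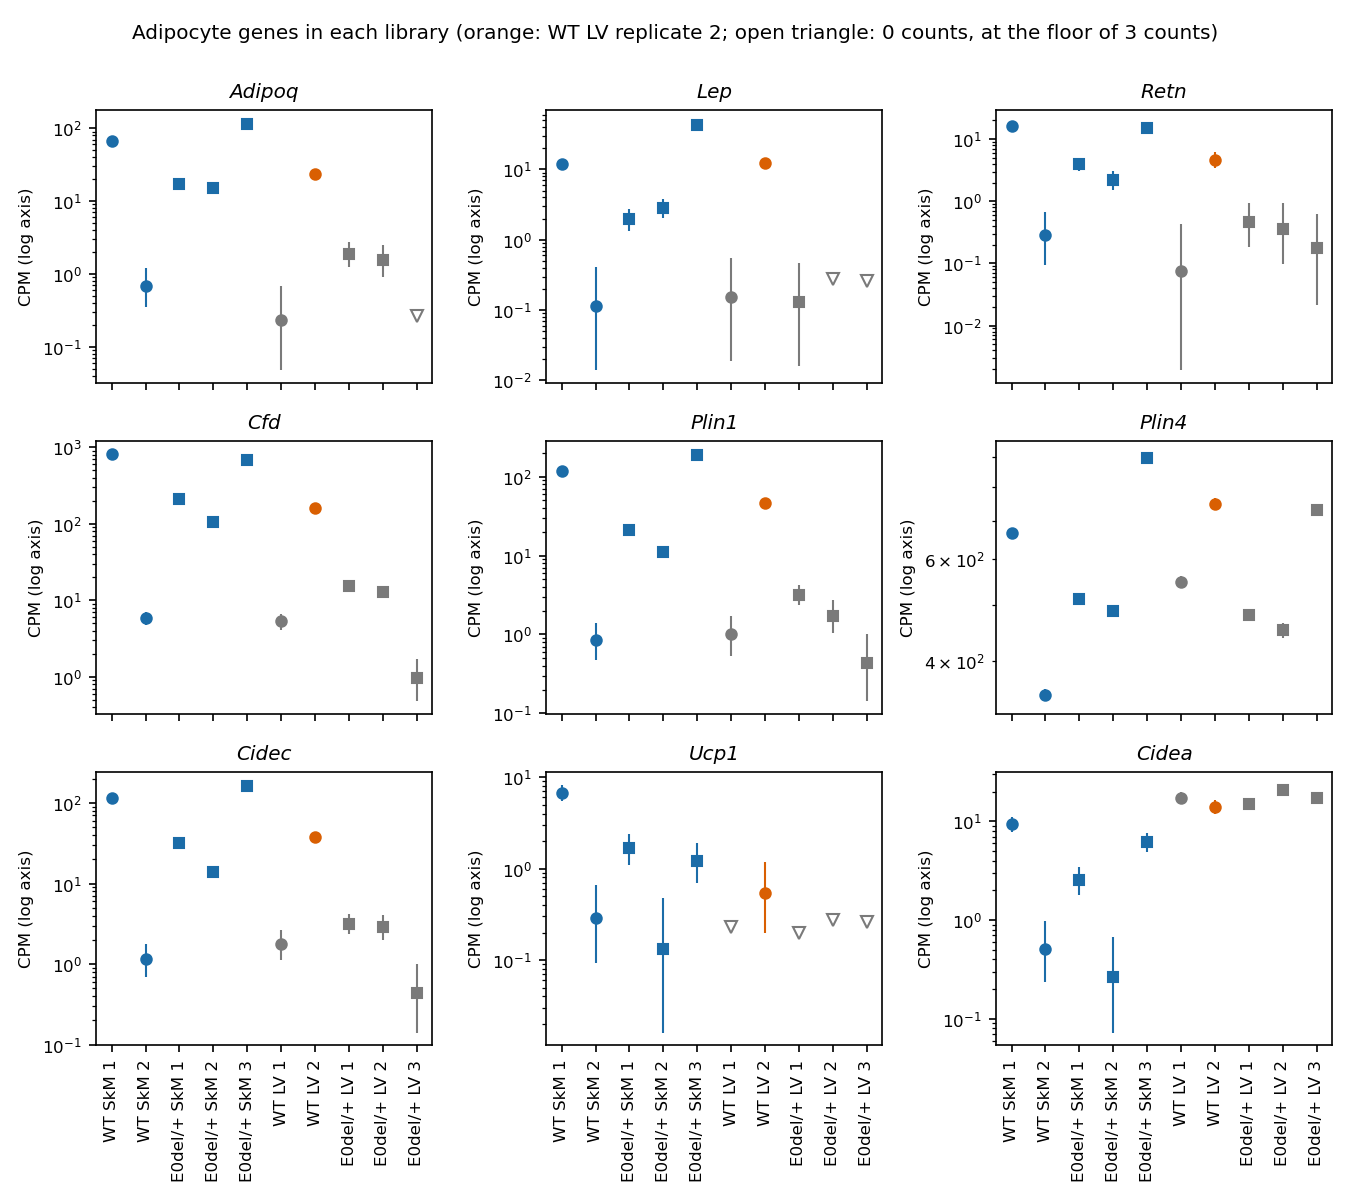
CPM of the 9 genes in each library, on log axes, with exact Poisson 95% intervals; circles are WT, squares E0del/+, blue SkM, grey LV and orange WT LV replicate 2, and open triangles mark 0 counts at the floor of 3 counts. WT SkM replicate 2 lies at or near the LV level for the white fat genes other than Plin4 (0.686 CPM of Adipoq), and WT LV replicate 2 lies among the SkM libraries (23.8 CPM).

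Per length, the level of the genes in SkM was ordered Cfd (391 ± 389 RPKM, SD, n = 5), Plin4 (101 ± 36.3), Cidec (37.8 ± 41.1), Plin1 (35.6 ± 43.0), Adipoq (34.8 ± 38.4), Retn (5.92 ± 5.91), Lep (3.68 ± 5.52), Cidea (3.23 ± 3.36) and Ucp1 (1.22 ± 1.66). This is the order of the means, and it did not hold in every library. Plin4 was above Cidec and Adipoq above Retn in each of the 5 libraries, while Cidec, Plin1 and Adipoq, with near means, changed places between libraries. In WT replicate 2, Plin4 (60.8 RPKM) was above Cfd (6.38 RPKM). Lep (13.2 RPKM) was above Retn (11.9 RPKM) in E0del/+ replicate 3. In WT replicates 1 and 2 and E0del/+ replicate 1, Lep was below Cidea and Ucp1. In the 4 LV libraries the order of means was led by Plin4 (96.1 ± 21.7 RPKM), Cidea (15.1 ± 2.03) and Cfd (9.36 ± 7.22). The mean of each of the others was under 1.3 RPKM. Cfd (16.6 RPKM) was above Cidea (12.9 RPKM) in E0del/+ LV replicate 1.

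Summed over the 9 genes, SkM libraries held 1821 and 360 CPM in WT and 802, 639 and 2104 CPM in E0del/+. Plin4 made up 97.3% of the sum in WT replicate 2 and 42.7% in E0del/+ replicate 3, so the sum follows Plin4 where fat genes are low. The 6 white fat genes without Plin4 summed to 1139 and 8.98 CPM in WT SkM and to 285, 150 and 1198 CPM in E0del/+ SkM. They summed to 8.53 CPM in WT LV replicate 1 and to 24.2, 19.5 and 2.01 CPM in E0del/+ LV, and to 284 CPM in WT LV replicate 2. WT SkM replicate 2 (exact Poisson interval 7.63 to 10.5) was within the range of these 4 LV libraries and the other SkM libraries were above it.

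The white fat genes were high or low together across SkM libraries, but not in a fixed proportion. Between libraries, the SD of log2(CPM + 0.5) was 1.85 for Retn to 2.85 for Plin1. The SD of the log2 ratio to the mean of the other white genes was smaller, from 0.31 for Adipoq and 0.32 for Cidec to 0.87 for Lep. For Ucp1 and Cidea the ratio varied more, with SDs of 1.87 and 1.43, and for Plin4 it varied by 1.99, since Plin4 itself varied little (SD 0.51). These SDs are descriptions over 5 libraries; no correlation was computed at this number.

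Relative to Adipoq, composition differed between libraries that were alike in total. There were 12.1 Cfd counts per Adipoq count in WT SkM replicate 1 (lower bound of the 95% exact interval 11.4) and 5.89 in E0del/+ SkM replicate 3 (5.59 to 6.21). For Lep the ratio went the other way, with 0.180 (0.152 to 0.213) and 0.376 (0.342 to 0.413). Retn gave 0.245 and 0.133, and Ucp1 0.101 (0.0811 to 0.126) and 0.0104 (0.0061 to 0.0168). E0del/+ replicate 1 resembled WT replicate 1 in Cfd (12.03) and Ucp1 (0.0957) per Adipoq count, while E0del/+ replicate 2 was nearer to E0del/+ replicate 3 in both (7.01 and 0.0089). In some other genes these pairs differed, and in others they were alike within counting error. Retn was alike in replicate 1 (0.227 in E0del/+ and 0.245 in WT) and in E0del/+ replicates 2 and 3 (0.147 and 0.133). Cidec was alike in replicate 1 (1.82 and 1.70) but not in E0del/+ replicates 2 and 3 (0.933 and 1.41). In replicate 1, Plin1 was at 1.22 (1.04 to 1.44) in E0del/+ and 1.78 (1.65 to 1.94) in WT per Adipoq count. E0del/+ replicates 2 and 3 differed as well, with Lep at 0.188 (0.132 to 0.262) in replicate 2, as in WT replicate 1, and Plin1 at 0.741 (0.603 to 0.910) against 1.65 (1.55 to 1.75). Replicate 1 of both genotypes belongs to batch 1, and the part of the batch in these proportions was not tested. In WT SkM replicate 2 the 12 Adipoq counts leave wide intervals, such as 4.71 to 17.2 for Cfd, and the ratio of Ucp1 was 0.417 (0.115 to 1.27).

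**Figure D2:**
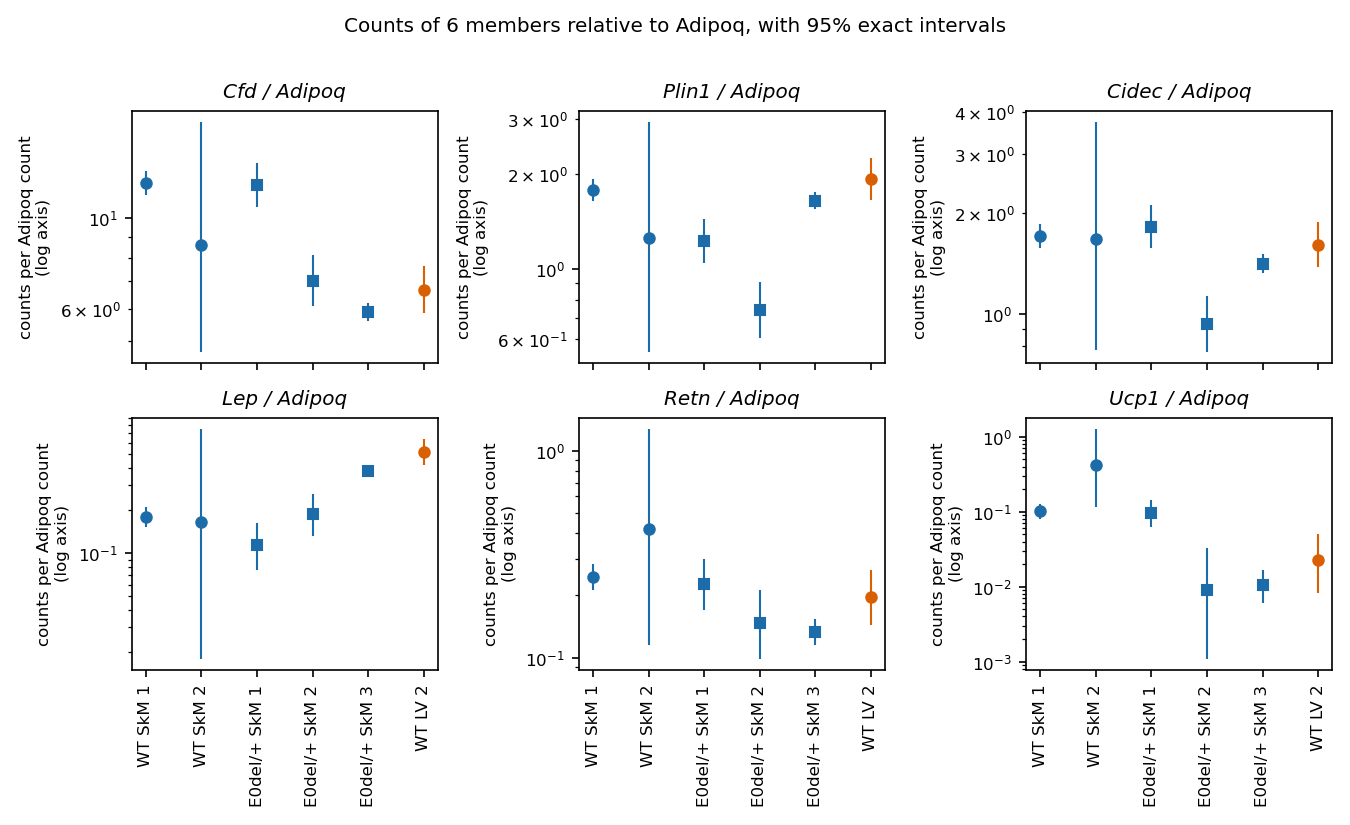
Counts of Cfd, Plin1, Cidec, Lep, Retn and Ucp1 per Adipoq count in the 5 SkM libraries and WT LV replicate 2, on log axes, with exact 95% intervals from counting; circles are WT, squares E0del/+ and orange is WT LV replicate 2. The Ucp1 ratio is near 0.1 in WT and E0del/+ SkM replicate 1 and near 0.01 in E0del/+ SkM replicates 2 and 3.

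Other genes of the adipocyte program had the same order. WT replicate 1 and E0del/+ replicate 3 took the top places and WT replicate 2 the lowest for 7 of the 9 genes (all but Ucp1 and Cidea) and for 20 of 27 other adipocyte genes. This held for 7 of 15 lipid genes shared with striated muscle, for 5 of 14 thermogenic genes and for 8.25% of the 12851 genes with a mean of at least 10 counts in SkM. Cebpa, a transcription factor that drives adipocyte differentiation, was at 39.2 and 1.72 CPM in WT SkM and at 11.8, 7.86 and 65.4 CPM in E0del/+ SkM. Pck1, the enzyme that feeds glycerol synthesis in fat, was at 149 and 0.572 CPM in WT and at 31.9, 5.60 and 205 CPM in E0del/+. Some genes differed between the libraries richest in fat genes, in either direction. Fasn, fatty acid synthase, was at 1550 CPM in WT SkM replicate 1 and 622 CPM in E0del/+ SkM replicate 3, and Acly at 151 and 49.6 CPM, Acaca at 127 and 58.6 CPM and Thrsp at 83.6 and 39.0 CPM were also higher in the former. The desaturase gene Scd1 was at 790 and 1938 CPM. Nnat, a proteolipid gene expressed in adipocytes, was at 7.92 and 79.8 CPM in these libraries, and Sncg, which encodes gamma-synuclein, was at 8.49 and 42.5 CPM.

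By the root mean square difference of log2(CPM + 0.5) deviations over the 5 SkM libraries, the 15 genes most like the mean of the 9 were Slc36a2, Pde3b, Cd1d1, Acvr1c, Cebpa, Slc7a10, Ces1f, Smoc1, Trf, Aoc3, Slc1a5, A530016L24Rik, Gpr81, Lgals12 and Pygl. Their differences ran from 0.14 (Slc36a2) to 0.35 (Pygl), where the median over 10095 genes was 1.73. Of these 15, 4 were in the list of other adipocyte genes and 1, Slc36a2, in the thermogenic list. Gpr81 encodes the lactate receptor of adipocytes and Lgals12 a galectin of the lipid droplet. Slc36a2 was at 26.3 and 0.629 CPM in WT SkM and at 7.20, 3.46 and 22.6 CPM in E0del/+ SkM, but its mean in the 4 LV libraries was higher, at 49.1 CPM. A530016L24Rik likewise had a mean of 57.6 CPM there, and Pygl of 16.1 CPM, while the other 12 of the 15 had the higher mean in SkM.

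**Figure D3:**
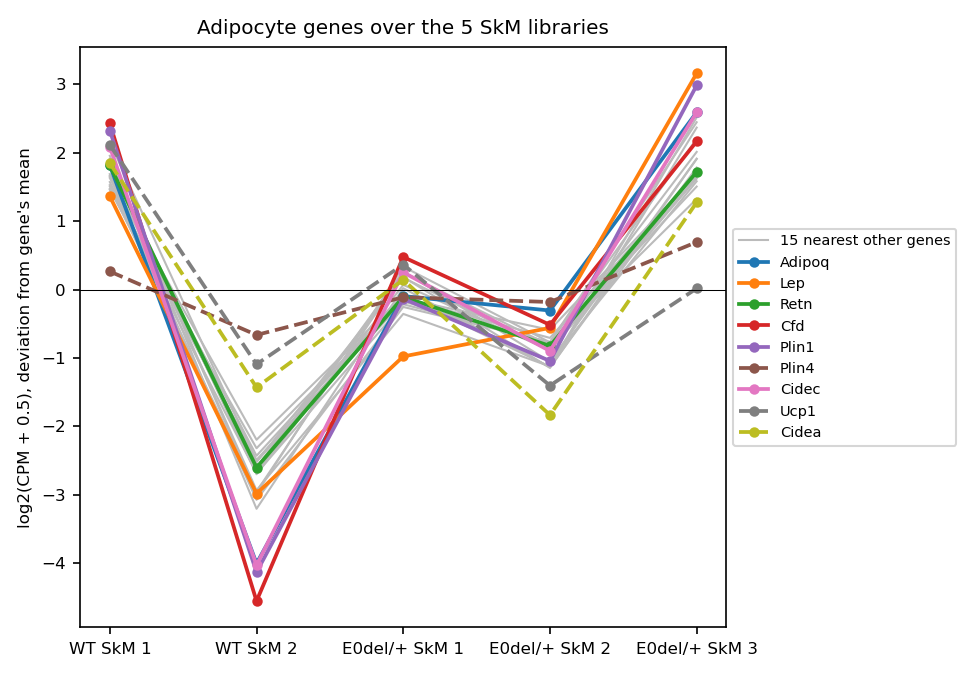
Deviation of log2(CPM + 0.5) from each gene's mean over the 5 SkM libraries, for the 9 genes (colours; dashed for Plin4, Ucp1 and Cidea) and the 15 nearest other genes (grey). The white fat genes are low in WT SkM 2 and high in WT SkM 1 and E0del/+ SkM 3, Plin4 varies least, and Ucp1 in E0del/+ SkM 3 is near its mean.

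Among markers of other cells, the sum of the fibroblast list had this order and the sums of the other lists given here did not. The 9 fibroblast and progenitor genes, led in SkM by Col3a1, summed to 468 and 148 CPM in WT SkM and to 216, 354 and 507 CPM in E0del/+ SkM, with the same libraries at the top and at the bottom as for the fat genes. Singly, 5 of the 9 had this order, and Pdgfra, Ly6a, Pi16 and Dpp4 did not, with Pdgfra at 13.5 and 3.43 CPM in WT and at 7.94, 11.3 and 7.11 CPM in E0del/+. The 5 endothelial genes, led by Cdh5, summed to 212 and 105 CPM in WT and to 221, 206 and 174 CPM in E0del/+, with WT replicate 2 lowest. Macrophage and leukocyte genes (5 of 6, led in SkM by Ptprc) summed to 81.7, 11.8, 113, 34.0 and 46.9 CPM in the same order of libraries, highest in the replicates of batch 1, where Ptprc was at 39.1 and 80.1 CPM, whereas Lyz2 was alike in these and in E0del/+ replicate 3 (26.8, 22.7 and 25.8 CPM). Slow fibre genes, led in SkM by Myh7, gave 1109, 112, 1531, 2036 and 233 CPM, lowest in WT replicate 2 and E0del/+ replicate 3, which stand at opposite ends for the fat genes. Of the mesothelial genes, Upk3b, Lrrn4, Msln and Wt1 were each under 0.8 CPM in every SkM library, while Krt19 was at 14.8 and 16.9 CPM in the replicates of batch 1. Of the erythroid genes, Alas2 ranged from 2.52 to 20.0 CPM and Hba-a1 was at 0 in every library. The part of these cells in the spread of fat genes was not tested.

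The comparison of SkM with LV asked which fat genes distinguished the tissues, without WT LV replicate 2 (9 libraries). Adipoq, Lep, Retn, Cfd, Plin1 and Cidec were higher in SkM, 6 of the 8 genes tested, where 27.2% of 13429 genes were called higher and 30.0% lower by edgeR's quasi-likelihood test at an adjusted p of 0.05. Adipoq stood at 42.9 ± 47.3 CPM in SkM (SD, n = 5) and 0.916 ± 0.940 CPM in LV (SD, n = 4), a log2 fold change of 6.84 (SE 1.94, adjusted p = 0.0156). For Lep the log2 fold change was 7.18 (SE 2.18, adjusted p = 0.0207). Those of Retn, Cfd, Plin1 and Cidec lay between 5.58 and 6.27, with adjusted p between 0.0112 and 0.0248. Each of these genes had its lowest SkM value within the LV range, in WT SkM replicate 2, so the tissues overlapped despite the call. Ucp1 was removed by the filter on low counts, and without a filter its adjusted p was 0.0075. Lep and Retn had at most 2 and 7 counts in any of these LV libraries, so they passed the filter through their SkM counts. Without a filter their adjusted p was 0.0128 and 0.00623. The median log2 fold change of the 8 genes was 6.12, beside -0.03 over all genes tested.

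The remaining members were not called. Plin4 had a log2 fold change of 0.67 (SE 0.32, adjusted p = 0.101) and Cidea of -1.60 (SE 0.82, adjusted p = 0.127). With the mouse as a replicate block, which pairs the tissues of an animal, Plin4 was called higher in SkM (0.81, adjusted p = 0.00115) and Cidea lower (-1.72, adjusted p = 0.0466). WT SkM replicate 2, the lowest SkM library for Plin4 (350 CPM), had no LV partner there and did not inform the tissue difference. The parts of the pairing and of the loss of this library in the new calls were not told apart. Plin4 depends on the scaling, since total counts in place of TMM gave it 0.04 (adjusted p = 0.909) and moved the median of all genes to -0.68, with 1584 genes called higher and 7400 lower against 3647 and 4026. WT SkM replicate 1 decided several values. Without it the log2 fold change fell to 4.22 for Adipoq (adjusted p = 0.0554), 3.32 for Plin1 (0.111) and 2.95 for Cidec (0.0671), which were no longer called, and to 3.40 for Cfd (0.0161), which was. Lep and Retn were removed by the filter whenever WT SkM replicate 1 or any of the 3 E0del/+ SkM libraries was left out. Plin1 also missed the threshold without E0del/+ LV replicate 2 (adjusted p = 0.0510), and with WT LV replicate 2 added, all 6 white genes kept their call with values between 3.64 (Retn) and 4.52 (Lep).

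**Figure D4:**
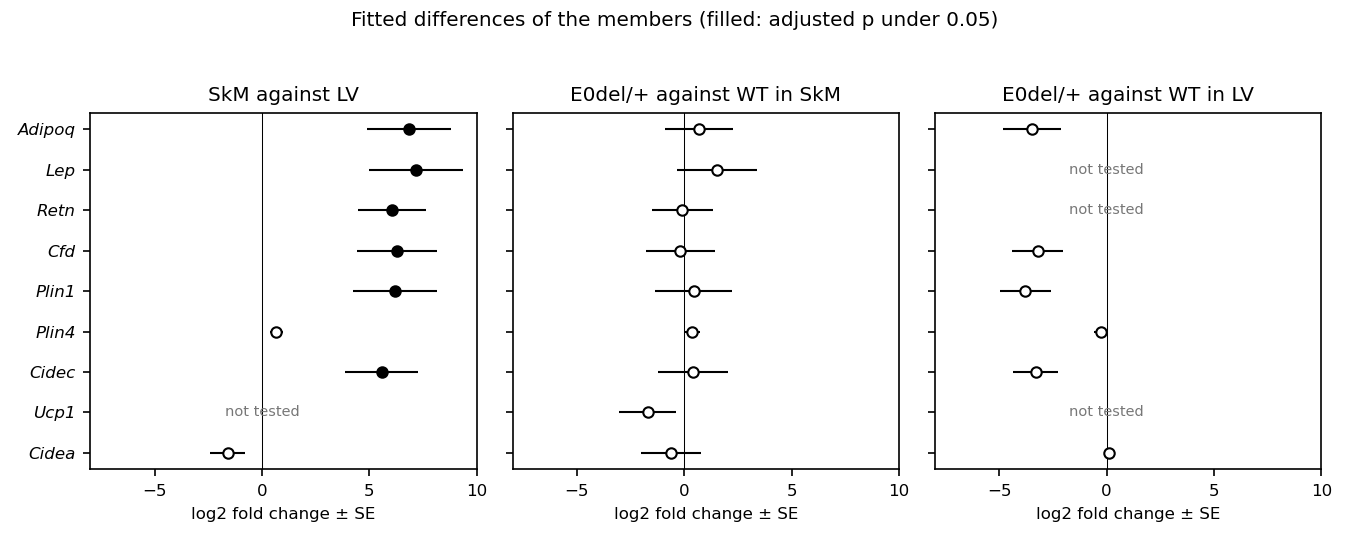
Fitted log2 fold changes of the 9 genes with their standard errors for SkM against LV (9 libraries) and for E0del/+ against WT in each tissue (5 libraries each); filled points have an adjusted p under 0.05, and genes removed by the filter are marked. The 6 filled points lie between 5.58 and 7.18, and no genotype difference is filled.

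Around these genes, lists of related genes were set beside the 27.2% of all genes called higher and 30.0% called lower. Of the other adipocyte genes, 24 were tested, 6 were higher, a share near that of all genes, and 1 was lower in SkM, with a median of 1.63. Pck1 (7.58, adjusted p = 0.0205), Slc7a10 (5.57, 0.017) and Adrb3 (5.55, 0.0236), the beta-3 adrenergic receptor of fat cells, had the largest values, and the most abundant, Scd1, was not called (5.17, adjusted p = 0.0519) except with DESeq2's size factors. With total counts Acaca and Acvr1c lost their call, which left 4 higher. Aqp7, a glycerol channel, was the gene called lower (-1.55, adjusted p = 0.00512). The 15 lipid genes shared with muscle had 2 higher and 6 lower, with a median of -0.22, and with total counts 1 higher and 9 lower (median -0.87). They ran from Gpd1, glycerol-3-phosphate dehydrogenase, at 4.28 to the fatty acid binding protein gene Fabp3 at -3.48 and lipoprotein lipase, Lpl, the most abundant, at -2.84 (each adjusted p under 0.0001). Of 10 thermogenic genes tested, 0 were higher and 7 lower in SkM, with a median of -1.40 (9 lower with total counts), led by the potassium channel gene Kcnk3 (-6.17, adjusted p = 0.000319), Prdm16 (-2.66) and Pank1 (-2.01). Prdm16, which directs brown fat fate, and Kcnk3 were thus higher in heart, where Ucp1 had 0 counts. Otop1, Elovl3, Zic1 and Dio2 of this list were removed by the filter on low counts. Their means in SkM and in the 4 LV libraries were 1.29 and 0.033 CPM for Otop1 and 0.470 and 0.022 CPM for Elovl3. Zic1 was at 0.104 and 0.022 CPM and Dio2 at 0.894 and 0.988 CPM, so all but Dio2 had the higher mean in SkM.

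Within families, members parted. Among perilipins Plin1 was higher in SkM, and Plin3 (-2.07, adjusted p = 1.13e-05) and Plin5 (-2.69, adjusted p = 1.325e-05), which coats droplets in oxidative muscle, were lower. Of the CIDE genes Cidec was higher and Cideb lower (-4.73, adjusted p = 0.000691). Ucp3, the skeletal muscle member of the uncoupling family, was higher (2.07, adjusted p = 0.00473) and the widely expressed Ucp2 lower (-1.31, adjusted p = 0.048). In the resistin family Retnla was not called (1.56, adjusted p = 0.0674), Retnlb was at 0 in every library and Retnlg was too low to test. Among receptors and partners of the secreted proteins, both adiponectin receptor genes were higher, Adipor1 (1.48, the most abundant) and Adipor2 (1.30), and the complement receptor gene C3ar1 was lower (-2.37). Cdh13 and Cfp were called lower too, but no longer with DESeq2's size factors.

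The markers of other cells separated the tissues in their own ways. Of fibroblast genes 0 were higher and 7 of 9 lower in SkM, of endothelial genes 0 and 5 of 5, and of macrophage and leukocyte genes 0 and 4 of 5. Of mesothelial genes 4 of 5 were lower, and Alas2, the erythroid gene tested, was lower (-1.15, adjusted p = 0.046). The T cell gene Cd3e (6.23) and the myelin gene Mbp (2.19) were higher. All 7 fast fibre genes were higher and all 6 ventricular genes lower, and of slow fibre genes 2 were higher and 2 lower. None of the 5 sex-linked genes was called.

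The fat genes of WT LV replicate 2 were compared with those of the SkM libraries. Per Adipoq count it held 0.519 Lep counts (0.419 to 0.640), more than E0del/+ SkM replicate 3 (0.376, 0.342 to 0.413), while the intervals for Retn, Cfd, Plin1, Cidec and Ucp1 overlapped. Overlap was not particular to that library. It held for Retn, Plin1 and Cidec in WT SkM replicate 1, and for all but Ucp1 in WT SkM replicate 2, whose intervals were wide. In E0del/+ SkM it held for Retn and Cidec in replicate 1 and for Retn, Cfd and Ucp1 in replicate 2. The excess of WT LV replicate 2 over the mean of the other LV libraries was set against each SkM library in turn. As a share of E0del/+ SkM replicate 3, the excess was 19.9% for Adipoq, 28.5% for Lep, 28.9% for Retn, 22.2% for Cfd, 23.5% for Plin1 and 22.4% for Cidec. The 7 fast fibre genes had shares between 21.01% and 24.6% of the same library, with a median of 23.0%, beside 22.9% for the 6 white fat genes. The median shares of the fast fibre genes and the white fat genes were therefore alike when measured against this library, while the white fat shares spread more widely. Against WT SkM replicate 1 the white fat shares ran from 18.5% to 102%, and against E0del/+ SkM replicates 1 and 2 from 71.9% to 623% and from 143% to 438%, while the fast fibre genes ran from 15.01% to 26.8%, 12.7% to 27.9% and 11.2% to 30.04% of these 3 libraries. Against WT SkM replicate 2, from the same mouse, they ran from 1543% to 10716%, with 16.3% to 44.4% for the fast fibre genes.

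Over the whole list of 27 other adipocyte genes the shares scattered widely. Against E0del/+ SkM replicate 3 they ran from -78.4% (G0s2) to 161% (Acly), with a median of 20.1%, and against WT SkM replicate 1 from -107% (Aqp7) to 203% (Nnat), with a median of 27.2%. Several of these genes, such as Aqp7 (55.6 CPM) and Acly (66.7 CPM), had a higher mean in the other LV libraries than in SkM. The medians were higher against the others, at 117% for E0del/+ SkM replicate 1, 173% for replicate 2 and 331% for WT SkM replicate 2. For Tnni1, a slow fibre troponin with little expression in the adult ventricle, the excess was 20.2% of E0del/+ SkM replicate 3, 38.4% of WT SkM replicate 2 and 2.25% to 3.90% of the others. Per 1000 Myh4 counts there were 1.29 Adipoq counts in WT LV replicate 2, 1.43 in E0del/+ SkM replicate 3, 0.877 in WT SkM replicate 1 and 0.0090 in WT SkM replicate 2. For the 6 white fat genes together there were 15.4, 14.98 and 14.97 counts in the first 3 of these, so that by this sum E0del/+ SkM replicate 3 and WT SkM replicate 1 were alike. Plin4 (749 CPM) and Cidea (13.9 CPM) in this library lay just outside the ranges of the other LV libraries, Plin4 above the highest (731 CPM) and Cidea below the lowest (14.97 CPM). How these transcripts came into the library was not tested.

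**Figure D5:**
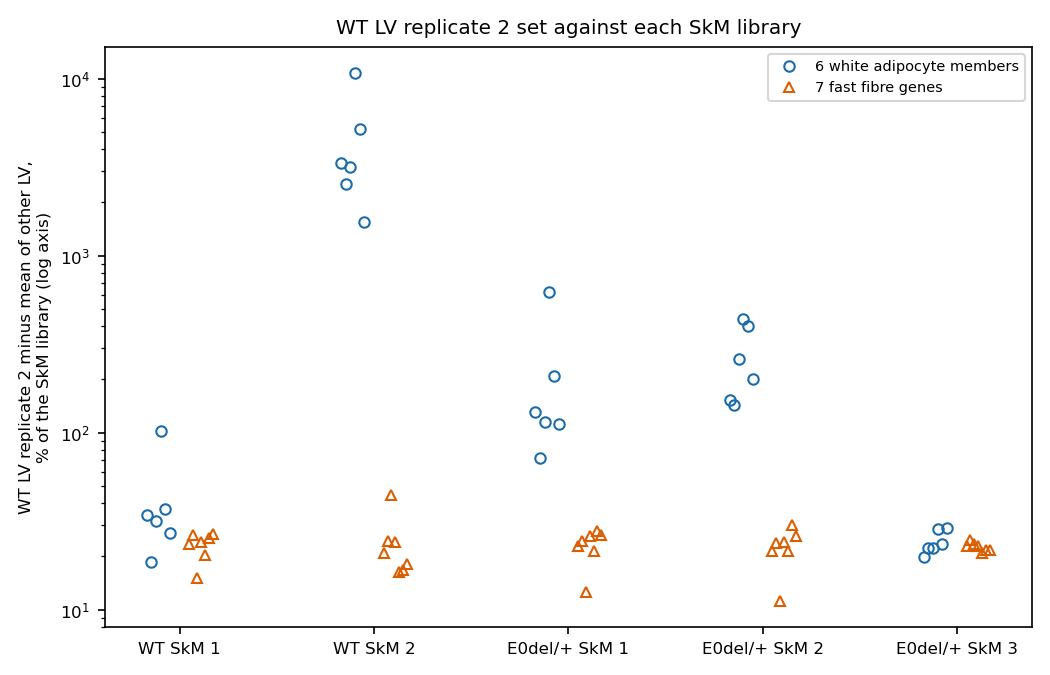
Excess of WT LV replicate 2 over the mean of the other 4 LV libraries, as a percentage of each SkM library (log axis), for the 6 white fat genes (blue circles) and 7 fast fibre genes (orange triangles). Both groups lie between 19.9% and 28.9% only against E0del/+ SkM 3.

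The comparison of genotypes asked whether the E0 deletion went with a change in fat genes. In SkM, 0 of the 9 genes were called, as were 0 of 13154 genes tested (0%), by edgeR's quasi-likelihood test, and DESeq2 also called 0. At an unadjusted p under 0.05 there were 114 genes by edgeR and 151 by DESeq2. The log2 fold changes of the 9 genes ran from -1.72 (Ucp1, SE 1.32) to 1.53 (Lep, SE 1.86), each with an adjusted p of 0.9998, and their median was 0.36, beside -0.01 over all genes. The standard errors were between 1.32 and 1.86 for every gene but Plin4 (0.36), so changes of several fold were not detectable in these libraries. Within batch 1, E0del/+ was lower for each of the 9 genes, with Adipoq at 0.260 times WT (0.227 to 0.297). Within batch 2 it was higher for the 7 white fat genes, with Adipoq at 21.7 times WT (12.2 to 42.7), so the batches had opposite directions for these genes. Ucp1 (ratio between 0.0444 and 2.85) and Cidea (0.518, between 0.117 and 1.86) were lower in E0del/+ in batch 2 as well, within counting error. With the batch as a replicate block, 1 gene was called, the Y-linked Eif2s3y (-6.60, adjusted p = 0.0372), named because the count was small, and none of the 9. Batch 3 holds E0del/+ replicate 3 alone, so that library did not inform the genotype difference in this fit. In batches 1 and 2, Eif2s3y was at 4.82 and 37.4 CPM in WT SkM and at 0.123 and 0.267 CPM in E0del/+ SkM. The part of sex in this call was not tested.

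In LV, 0 of 6 genes tested were called, as were 0 of 13420 genes (0%) by edgeR, with 564 at an unadjusted p under 0.05. DESeq2 called 12, and of the 9 genes it gave an adjusted p for Plin4 alone, which was not called. Of the 12 genes called, 11 were lower in E0del/+, fast fibre genes such as Myh4 (-7.10) among them. Myh4 was at 18473 CPM in WT LV replicate 2 and between 70.3 and 81.7 CPM in the other LV libraries. Adipoq (-3.47, SE 1.36), Cfd (-3.21, SE 1.19), Plin1 (-3.79, SE 1.20) and Cidec (-3.31, SE 1.06) had low values in E0del/+ against the mean of WT, with an adjusted p of 0.9974 and unadjusted p between 0.013 and 0.0331. These values turned with the WT library left out. Without WT LV replicate 2 they were 2.28, 0.86, 0.87 and 0.30 (adjusted p = 0.9998 each), and without WT LV replicate 1, these 4 were among 574 genes called lower, in a fit with 1 WT library, where the spread comes from the E0del/+ libraries alone. Within batch 1, E0del/+ LV held 8.19 times the Adipoq of WT (2.54 to 42.0), and within batch 2, 0.0650 times (0.0373 to 0.106). Cidea (0.11, SE 0.18) and Plin4 (-0.28, SE 0.32) differed little between genotypes, with adjusted p of 0.9974. With the batch as a replicate block 5 genes were called lower, Kdm5d, Uty, Ddx3y, Eif2s3y and Mstn, named because the count was small. The first 4 are Y-linked, and none is a fat gene. E0del/+ LV replicate 3, alone in batch 3, did not inform the genotype difference in this fit either. In batches 1 and 2, Eif2s3y was at 0 and 52.6 CPM in WT LV and at 0.195 and 1.36 CPM in E0del/+ LV.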

How the data were processed

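Poly(A) RNA of 10 libraries, LV and SkM of 5 mice, was analysed from the deposited tables. The count values, 1 whole number per gene, are as deposited by the authors, and the RPKM values, deposited beside them, equal counts over gene length and total counts. STAR and mm10 are named in the submitters' processing notes. CPM were computed from the counts, with 0.5 CPM added before log2, and intervals are exact 95% Poisson or binomial ones that cover counting error only, as do floors of 3 counts. Differences were tested with edgeR 4.0.16 (R 4.3.3, limma 3.58.1; TMM scaling, filterByExpr, quasi-likelihood F test, Benjamini-Hochberg over all genes tested, threshold 0.05), after tests on simulated data. The SkM against LV fit held 4 groups and left out WT LV replicate 2. Genotypes were compared within each tissue. Tables and plots used Python 3.11.15, pandas 2.3.3, numpy 2.4.6, scipy 1.17.1 and matplotlib 3.10.9.

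The members and lists were chosen with earlier results of these data known. All 9 members are named; from each list of related or marker genes the text names the most abundant gene, those called with the largest fold changes and those at 0 throughout. Likeness used genes with a mean of at least 50 counts in SkM. Alternatives were DESeq2 1.42.0, its size factors or total counts as scaling, no filter, a fit over 10 libraries, each library left out, and the replicate or mouse as a block. Replicate numbers pair samples because the labels give them as batches, and the tissues of a mouse come from the same animal. Deviations from group means correlated with r of 0.540 and 0.330 within batches 1 and 2 of SkM, 0.0599 and -0.150 of LV, and -0.0978 to 0.125 between the tissues of a mouse. With 2 WT libraries per tissue, the deviations of WT replicate 2 are those of WT replicate 1 with the sign turned. The values of the batches, and of the WT mice, are therefore not independent. Trarg1, Adgre1, Hbb-bs and Hbb-bt are not analysed here. Some genes of the lists, and the sums and counts that hold them, are not reported here.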

Additional observations from a re-analysis of the deposited data

Results flagged for a closer look

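Each gene was examined in each tissue for a library far from the other 4, by the gap to the nearest value over the range on log2(CPM + 0.5), a rule that by chance marks about 1 in 20 groups. Of 18 groups 3 were marked, all in LV and all for WT LV replicate 2. Lep stood at 12.3 CPM there, Retn at 4.68 CPM and Ucp1 at 0.540 CPM (6 counts), with gaps on the log2 scale of 0.917, 0.770 and 1.000 of the range, where 0.71 was the limit for 5 libraries. For Ucp1 the gap of 1.000 follows from the 0 counts in the other 4 libraries, so any count there would have been marked. The number marked depends on this scale. What set this library apart was not tested.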

How the results depend on the processing

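For SkM against LV no fold change turned direction in 112 values of 8 members, 102 kept their side of the threshold, 4 calls were lost, as the report gives, and 6 were gained. Beside the calls with the mouse as a block, Plin4 was called by DESeq2 (0.71, adjusted p = 0.0309) and without E0del/+ LV replicate 3 (0.83, 0.0458), and Cidea without WT SkM replicate 1 (-3.04, 0.0103) and without E0del/+ SkM replicate 3 (-2.13, 0.0402). The count of called genes went from 6815 to 8332 as single libraries were left out. For genotype in SkM, 87 of 108 values kept their direction and 21 turned, none of them called. The log2 ranges were taken over all alternatives, single libraries left out among them. They were -0.96 to 6.02 for Adipoq, -1.23 to 6.92 for Lep, -1.35 to 4.48 for Retn, -1.30 to 5.68 for Cfd and -1.80 to 6.29 for Plin1. For Plin4 the range was -0.0195 to 0.74, for Cidec -1.25 to 5.79, for Ucp1 -2.64 to 1.63 and for Cidea -1.76 to 2.38. With the replicate block, Lep was at -0.24, Cfd at 0.96 and Plin1 at -0.0228, and 1 gene was called in place of 0. In that fit E0del/+ SkM replicate 3, alone in its batch, did not inform the genotype difference. The block changed no call of a member in the genotype comparisons. With Xist as a covariate, an alternative chosen after seeing the data, Plin1 was at -0.70 and Cidec at -0.20.

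For genotype in LV, 58 of 67 values stayed as they were, 4 were called and 5 turned. Leaving out single libraries gave -4.45 to 2.28 for Adipoq, -4.16 to 0.86 for Cfd, -4.75 to 0.87 for Plin1, -0.60 to 0.0438 for Plin4 and -4.24 to 0.30 for Cidec, with the upper end in each case without WT LV replicate 2, and 0 to 578 genes called. DESeq2 called 12 genes and the replicate block 5. The summed CPM of the 9 members was 5.85 times as high in the highest SkM library as in the lowest (5.69 to 6.01), 5.28 times with TMM and 17.3 times as a sum of RPKM, in which the long Plin4 weighs less. Of the 15 genes nearest in pattern, 14 stayed without E0del/+ SkM replicate 3. The cause of the other shifts was not tested. With 1 count worth up to 0.0908 CPM, Lep, Retn and Ucp1 in LV rest on few counts.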
